A study of Mus musculus with 3 samples.

Results

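Nitrogen mustard (NM) joins the strands of DNA to each other, and 37 genes whose products repair such crosslinks, excise damaged bases, recombine broken strands or signal damage were followed through single cells of the mouse cornea. The genes were taken by symbol from a set written down as a repair module, by a rule that uses no measured level, and all 37 had 1 row each among the 32285 genes of every count matrix. The cells came from cornea and limbus, the rim where cornea meets conjunctiva, of mice of genotype wt. There were 3 libraries made by droplet sequencing (10x Genomics), 1 per group. Of these 1 was uninjured and 2 were NM-injured, 1 treated with saline and the other with losartan, a blocker of an angiotensin receptor. The sample titles do not give the number of mice per library. Strain, age, sex, time after injury, and the dose and route of losartan are not given in the sources used here. With 1 library per group no p-value was possible, and the mice, the library and the condition cannot be told apart.

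An interstrand crosslink stalls replication. The Fanconi core complex then attaches ubiquitin to the pair Fancd2 and Fanci, nucleases unhook the crosslink, translesion polymerases copy past the remnant, and homologous recombination rebuilds the broken strand. Damage on a single base goes instead through base excision, nucleotide excision or direct reversal, and the kinases Atm, Atr, Chek1 and Chek2 hold the cell cycle meanwhile. Recombination uses the sister copy and so belongs to the S and G2 phases, which is why levels are also given for cycling and non-cycling epithelial cells separately.

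The libraries held 13270, 6814 and 5887 barcodes (uninjured, saline, losartan), of which 11233, 5800 and 4919 cells were kept, with median totals of 11593, 4115 and 6201 unique molecular counts (UMIs) per cell. The kept barcodes gave 146182151, 74638833 and 83435522 UMIs. Between 7 and 28 barcodes were shared by any 2 libraries, at most 0.476% of the smaller one. Epithelial-like cells, named from keratin and junction markers, all 14 of which were detected, numbered 8451, 889 and 1723. They fell into 7 clusters of the uninjured library and 2 other clusters (4 and 5) shared by the injured libraries, so that the epithelium of the conditions was compared as a class and then cluster by cluster. Median UMIs per epithelial-like cell were 14009, 42803 and 32701, and 0, 139 and 23 of these cells had over 100000 UMIs. Levels are UMIs of a gene per 1000000 UMIs of the class (CPM), with exact Poisson 95% intervals. They cover counting error only, and are not divided by gene length, so levels are compared between libraries and not between genes. In such sums a lower share of cells with a gene and less RNA of it per cell cannot be told apart.

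Promoter windows of the members were searched for short motifs. RefSeq promoter windows (build GRCm38.p6, 250 bases before the gene start) were given for 32 of the 37 genes and not for Fancd2, Xrcc2, Ercc3, Rev3l and H2afx. The E2F motif, bound by a family of S-phase transcription factors and searched as TTTCCCGC, TTTGGCGC or TTTCGCGC on both strands, lay in 3 of the 32 windows (9.38%), those of Fancg, Brca2 and Chek2, against 1.78% of 27025 genes. The letters CCAAT lay on either strand in 18 of the 32 (56.2%) against 37.5% of all. Among the 18 were Brca1, Rad54l and Blm, which were higher in cycling cells, and Xpa and Ercc4, whose levels hardly differed between cycling and non-cycling cells. Neither E2F nor CCAAT letters lay in the windows of Palb2, Fanci, Chek1 and Lig1, which were higher in cycling cells. RefSeq started Fanci, Chek1 and Lig1 409, 407 and 108 bases from the GENCODE M21 start. The Fanci and Chek1 windows lie inside the GENCODE gene, so the stretch before that start was not searched for them. Whether a motif went with the cycling ratio was not tested. TTTGAA, the core of a motif of late cell cycle genes (the cell cycle homology region), lay in 0 of the 32 against 18.3% of all. In the windows shown no match overlapped another, and a match is a description of the window only. Shown are the windows with an E2F motif, and those of Brca1 and Rad54l, which held CCAAT and whose levels in cycling cells are described further on. Capitals mark E2F and CCAAT matches, and each run reads 5′ to 3′ in the direction of the gene. The E2F match began at -168 in Brca2, -152 in Chek2 and -52 in Fancg, and the CCAAT match at -86 in Brca1, and at -50 in Rad54l, where -1 is the last base before the start. Chek2 held 2 CCAAT matches besides. RefSeq started Fancg 205 bases from the GENCODE M21 start, and listed 2 promoters for Rad54l, of which the one at the GENCODE start is shown.
Brca2 (chr5:150522371-150522620, plus strand): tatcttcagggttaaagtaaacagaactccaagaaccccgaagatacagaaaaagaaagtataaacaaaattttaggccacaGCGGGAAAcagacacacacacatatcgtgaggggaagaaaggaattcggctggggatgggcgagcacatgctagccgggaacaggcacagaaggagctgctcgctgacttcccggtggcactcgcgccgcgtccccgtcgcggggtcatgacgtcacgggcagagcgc
Chek2 (chr5:110839733-110839982, plus strand): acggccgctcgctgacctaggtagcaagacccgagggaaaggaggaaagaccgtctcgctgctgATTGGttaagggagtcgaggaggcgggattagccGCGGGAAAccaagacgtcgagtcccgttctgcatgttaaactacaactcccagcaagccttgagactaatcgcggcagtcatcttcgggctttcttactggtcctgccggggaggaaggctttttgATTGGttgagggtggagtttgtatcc
Fancg (chr4:43010302-43010551, minus strand): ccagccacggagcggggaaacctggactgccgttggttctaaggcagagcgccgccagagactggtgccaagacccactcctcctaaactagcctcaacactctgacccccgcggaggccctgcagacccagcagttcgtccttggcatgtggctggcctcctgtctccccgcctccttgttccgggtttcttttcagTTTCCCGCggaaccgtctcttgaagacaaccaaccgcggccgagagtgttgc
Brca1 (chr11:101551956-101552205, minus strand): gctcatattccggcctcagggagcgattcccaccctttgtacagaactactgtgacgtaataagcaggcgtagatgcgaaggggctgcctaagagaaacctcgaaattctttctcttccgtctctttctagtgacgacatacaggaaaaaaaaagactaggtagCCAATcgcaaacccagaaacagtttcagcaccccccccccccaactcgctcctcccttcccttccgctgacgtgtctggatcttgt
Rad54l (chr4:116123691-116123940, minus strand): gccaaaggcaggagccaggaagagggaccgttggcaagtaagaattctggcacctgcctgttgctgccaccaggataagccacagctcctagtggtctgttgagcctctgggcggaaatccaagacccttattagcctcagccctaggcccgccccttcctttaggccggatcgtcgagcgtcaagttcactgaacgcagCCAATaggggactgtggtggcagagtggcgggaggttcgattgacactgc

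The injured epithelium was compared with the uninjured one to see which repair genes stood higher or lower after NM. Mgmt, which takes alkyl groups off guanine, and Ercc1, a subunit of the nuclease that unhooks crosslinks, were several times higher in both injured libraries. Rev1, the scaffold of translesion synthesis, was 2-fold or more higher in both, though in injured cluster 4 it lay inside the range of the uninjured clusters. Xpa, Parp1, Lig3 and Fancl were 2-fold or more lower in both. Of the 37 genes 32 were measured, which here means a mean of at least 2 CPM over the compared libraries. In the saline library 6 of the 32 were 1.5-fold or more higher (22.7% of all measured genes) and 4 were 1.5-fold or more lower (20% of all). In the losartan library 3 were higher (17.9% of all) and 7 lower (23.3% of all). In both comparisons the members' shares were near or below those of all genes, so the counts are no result about the module. The median log2 ratio of the members was 0.13 for saline and -0.16 for losartan, against 0.03 and -0.05 over all measured genes. Both comparisons share the uninjured library and are set side by side. Ratios below are of CPM with exact conditional 95% intervals, and the 1.5-fold calls use CPM + 1.

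**Figure D1:**
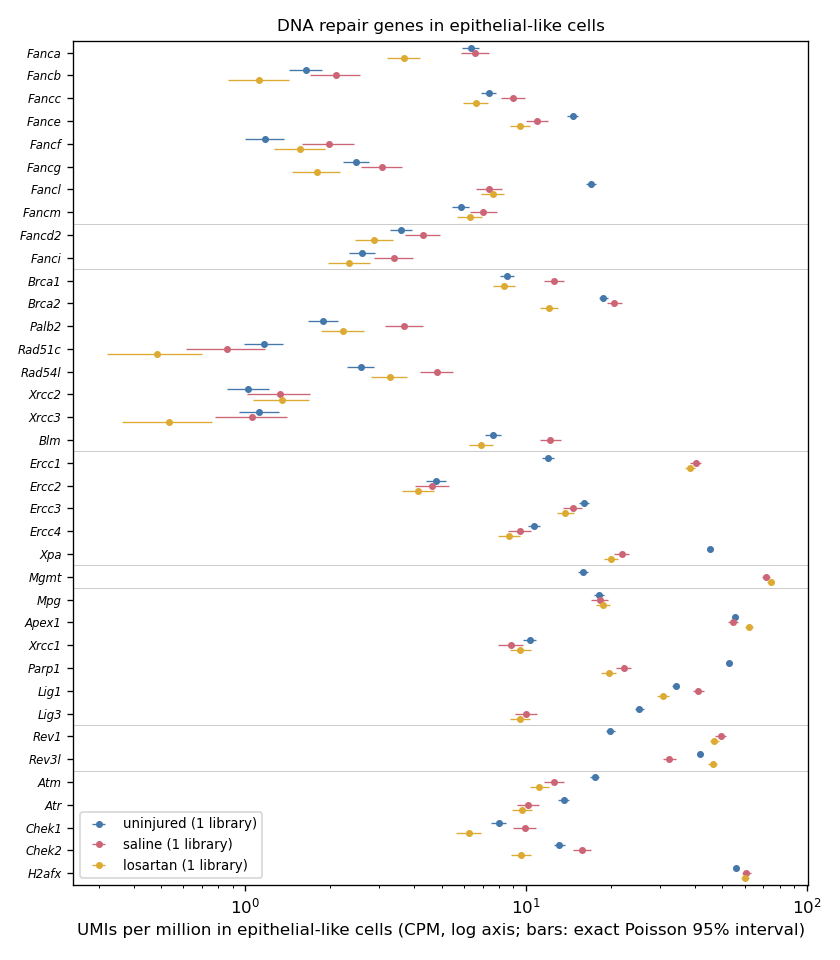
Levels of the 37 genes in epithelial-like cells, grouped by role and separated by grey lines; points are CPM on a log axis, bars exact Poisson 95% intervals, colours the 3 libraries. Mgmt, Ercc1 and Rev1 stand higher in both injured libraries and Fancl, Xpa, Parp1 and Lig3 lower.

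Among the Fanconi genes, Fancl, the ubiquitin ligase of the core complex, stood at 17.0 CPM in the uninjured library, 7.37 with saline and 7.63 with losartan. Both injured values were thus below the uninjured one, at 0.434 times (0.386 to 0.487) and 0.449 times (0.405 to 0.498). Fanca, a subunit of the same complex, stood at 6.34, 6.58 and 3.68 CPM, so that the losartan library alone was low, at 0.580 times the uninjured level (0.497 to 0.675). Fance, which links the core to Fancd2, stood at 14.7, 11.0 and 9.52 CPM, inside the 1.5-fold bounds, though its plain ratio in the losartan library was 0.649 times (0.590 to 0.714). The other measured core members Fancc, Fancg and Fancm lay between 0.722 and 1.24 times the uninjured level. The substrate pair Fancd2 and Fanci lay between 0.806 and 1.30 times. Fancb and Fancf were too low to count as measured, with 1.12 to 2.10 and 1.17 to 1.99 CPM.

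Of the homologous recombination genes, 3 of the 5 measured were 1.5-fold or more higher in the saline library (22.7% of all genes). With losartan 0 of them were (17.9% of all). These are few genes, and the counts are no result about the group. Palb2, which bridges Brca1 and Brca2, stood at 1.89, 3.69 and 2.23 CPM. Rad54l, a motor protein of strand exchange, stood at 2.57, 4.81 and 3.26 CPM. Blm, a helicase that resolves recombination intermediates, stood at 7.62, 12.2 and 6.90 CPM. The saline library was thus the highest for all 3, at 1.95 times (1.59 to 2.38), 1.87 times (1.57 to 2.22) and 1.60 times (1.44 to 1.78) the uninjured level. Palb2 was under 2 CPM in the uninjured library and counted as measured through its injured level. Under the alternatives the saline log2 ratios fell as low as 0.33 for Palb2, 0.36 for Rad54l and 0.45 for Blm. Brca1, which starts the choice of recombination at a break, followed at 8.54, 12.6 and 8.33 CPM and 1.47 times (1.33 to 1.63). Brca2, a mediator of strand exchange, stood at 18.9, 20.6 and 12.1 CPM, low in the losartan library at 0.641 times (0.588 to 0.697). The recombination genes Rad51c, Xrcc2 and Xrcc3 were not measured, with 0.483 to 1.35 CPM in every library. The saline library also held the largest share of cycling epithelial-like cells, 28.7% against 18.8% in the uninjured and 19.9% in the losartan library, among cells deep enough for a call. Within cycling cells Palb2 stood at 7.25 and 8.34 CPM, Rad54l at 11.6 and 12.8, and Blm at 30.7 and 31.8 in the uninjured and saline libraries, all inside the 1.5-fold bounds. The part of the cycling share in the class ratios was not tested.

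Nucleotide excision repair split. Ercc1, which with Ercc4 forms the nuclease that cuts beside bulky lesions and crosslinks, had 11.9 CPM in the uninjured library, 40.2 with saline and 38.3 with losartan. The injured levels were 3.37 times (3.15 to 3.61) and 3.21 times (3.01 to 3.42) the uninjured one. Ercc4, its partner, had 10.7, 9.49 and 8.70 CPM, inside the bounds. Xpa, the scaffold that places the nuclease, had 45.1, 21.9 and 20.1 CPM, so both injured libraries were low at 0.486 times (0.454 to 0.519) and 0.446 times (0.418 to 0.475). The helicases Ercc2 and Ercc3 of the transcription factor that opens the strand lay between 0.855 and 0.970 times the uninjured level.

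Mgmt had the largest ratio of the 37 genes in both injured libraries, with 16.0 CPM in the uninjured library, 71.6 with saline and 74.3 with losartan. These are 4.48 times (4.24 to 4.74) and 4.65 times (4.42 to 4.90). A UMI of Mgmt was seen in 19.4%, 60.7% and 67.1% of epithelial-like cells, and in 5.14%, 19.4% and 19.0% of them after each cell was thinned to 3000 UMIs. Neutrophil-like cells, with median depths of 3946 (saline) and 2606 UMIs (losartan), had it in 0.477% and 0.956% of cells (0.331% and 1.14% thinned). The macrophage or monocyte-like cells of the injured libraries had 6.27 and 12.7 CPM of Mgmt, below every epithelial cluster of those libraries. The 14 markers of that class summed to 205 CPM in the uninjured, 1786 in the saline and 900 in the losartan epithelium, and the 14 neutrophil markers to 6.93, 352 and 182 CPM. The part of RNA from such cells in the ratios of Mgmt and of the other members was not tested.

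In base excision and single-strand break repair, Parp1, the sensor of strand breaks, had 52.6, 22.3 and 19.7 CPM. Lig3, the ligase that works with Xrcc1, had 25.3, 10.00 and 9.52 CPM. Both genes were low in both injured libraries, at 0.423 times (0.396 to 0.452) and 0.374 times (0.351 to 0.398) for Parp1 and at 0.395 times (0.357 to 0.436) and 0.376 times (0.343 to 0.412) for Lig3. The remaining 4 genes stayed inside the 1.5-fold bounds. Mpg, the glycosylase of alkylated purines, had 18.2, 18.3 and 18.8 CPM, the nearest to equal of all members between saline and uninjured. Apex1, the endonuclease at abasic sites, had 55.5, 54.5 and 62.4 CPM, and the scaffold Xrcc1 had 10.3, 8.81 and 9.54. Lig1, the replicative ligase, had 34.1, 41.1 and 30.8 CPM.

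The translesion genes differed from each other. Rev1 had 19.9 CPM in the uninjured library, 49.2 with saline and 46.9 with losartan, 2.47 times (2.33 to 2.61) and 2.35 times (2.23 to 2.48). Rev3l, the catalytic subunit of the polymerase that Rev1 recruits, had 41.6, 32.4 and 46.2 CPM. Of the signalling genes none passed 1.5-fold in the saline library, and in the losartan library Atm, the kinase of double-strand breaks, was lower with 17.5, 12.6 and 11.1 CPM. Its partner kinase Atr had 13.6, 10.2 and 9.70 CPM. Chek1 and Chek2, the kinases they activate, had 7.97, 9.89 and 6.25 CPM and 13.1, 15.8 and 9.59 CPM. H2afx, the histone that is phosphorylated around breaks, had 55.7, 60.9 and 60.2 CPM.

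Cluster by cluster, 2 members lay above and 2 below in the injured clusters without overlap, and the other 33 overlapped. The share of all genes without overlap was not computed, so these counts describe single members and are no result about the module. Ercc1 spanned only 11.3 to 13.6 CPM over the 7 uninjured clusters, from cluster 6, led by Spink7 and Gsta2, to cluster 17, led by Gpha2, a gene of limbal cells. In the injured clusters it spanned 31.7 to 50.1 CPM. Mgmt spanned 8.45 to 30.9 CPM uninjured and 37.7 to 111 CPM injured, the highest value in cluster 5 of the saline library. Xpa spanned 32.5 to 62.1 CPM uninjured and 16.4 to 28.2 injured. Lig3 spanned 16.8 to 32.5 CPM uninjured and 7.42 to 13.0 injured. Parp1 overlapped, with 20.4 CPM in cluster 8 (led by Asprv1 and Krt78) and 50.2 to 77.5 in the other uninjured clusters, 9.90 and 10.6 in injured cluster 4 (led by Sprr2f and Krt16), and 28.4 and 35.7 in injured cluster 5 (led by Kcnq5 and Col18a1).

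Rev1 differed between clusters as widely as between libraries. It had 95.2 and 79.2 CPM in cluster 5 of the saline and losartan libraries, but 9.36 and 10.7 in cluster 4. Uninjured clusters ran from 2.79 CPM in cluster 8 to 48.4 in cluster 17. Cluster 5 also held most of the cycling cells of the injured epithelium, with 47.3% and 33.9% of its deep cells called cycling, against 10.8% and 2.48% in cluster 4.

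**Figure D2:**
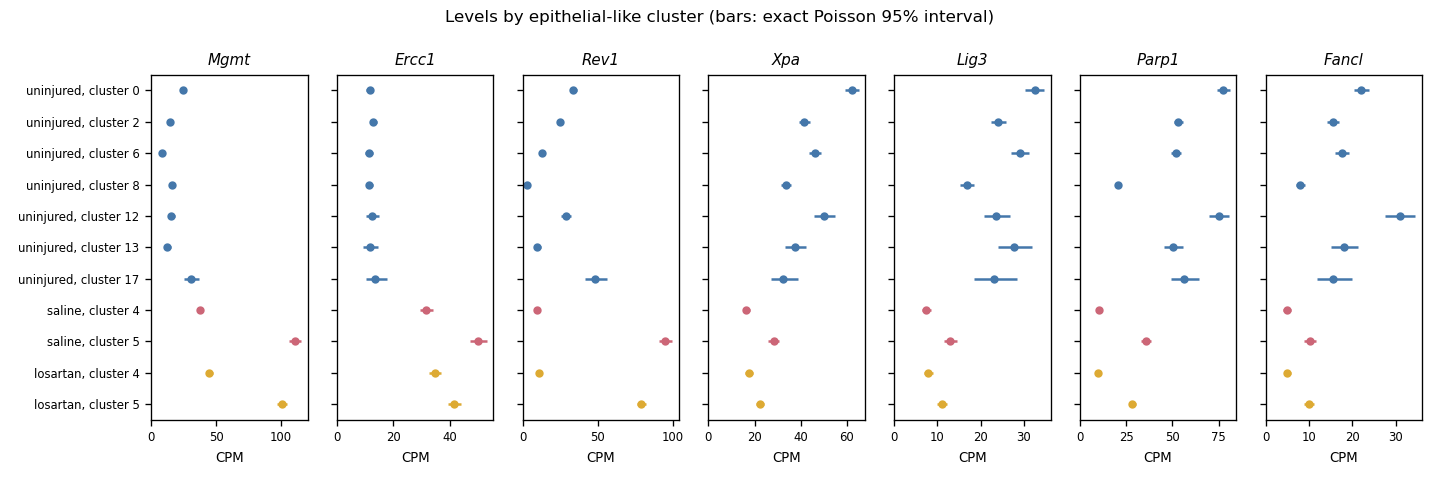
Levels of 7 genes in each epithelial-like cluster and library, in CPM with exact Poisson 95% intervals; rows are clusters, colours the libraries. Ercc1 and Mgmt are higher and Xpa and Lig3 lower in all 4 injured rows than in any uninjured row, while Rev1 is high in cluster 5 and low in cluster 4.

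Overlap with other genes limits some of these counts. By GENCODE M21 on GRCm38, exons of 19 of the 37 genes overlap exons of another counted gene, always on the other strand. Genes that overlap in introns only were not searched for. Whether counting used the strand was not given in the sources used here. Ercc1 (chromosome 7, 19344778 to 19356524, plus strand) overlaps Cd3eap, which had 25.5, 29.0 and 26.0 CPM and did not share the difference. Lig3 (chromosome 11, 82781108 to 82804274, plus strand) overlaps Rffl, which did, with 27.2, 9.47 and 10.3 CPM. Xpa (chromosome 4, 46155347 to 46196311, minus strand) overlaps Ncbp1 with 35.6, 38.8 and 36.3 CPM, and Rev1 (chromosome 1, 38052786 to 38129801, minus strand) overlaps Eif5b with 233, 289 and 295 CPM. Fancl (chromosome 11, 26386135 to 26471876, plus strand) overlaps Vrk2 with 18.2, 14.0 and 11.3 CPM. Exons of Mgmt (chromosome 7, 136894614 to 137130266, plus strand) and Parp1 (chromosome 1, 180568924 to 180601254, plus strand) overlap no exon of another counted gene.

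Cycling and non-cycling epithelial-like cells were compared within each library, which keeps the library the same but not the cluster. In clusters 5 and 4, 47.3% and 10.8% of deep cells were cycling with saline, and 33.9% and 2.48% with losartan. The part of the cluster in the ratios was not tested. Brca1, Brca2, Palb2, Rad54l, Blm, Fancd2, Fanci, Chek1, Lig1 and H2afx were 3.29 to 61.3 times higher in cycling cells, while Ercc1, Ercc3, Ercc4, Xpa and Lig3 hardly differed. Of the other recombination genes Rad51c was measured in the uninjured library alone, at 7.62 times (5.29 to 11.1), and Xrcc2 and Xrcc3 in none. A cell counted as cycling with 5 or more UMIs of 22 S-phase and 36 G2/M genes (no repair member among them) after thinning to 3000 UMIs, and as non-cycling with 2 or fewer. There were 1467, 207 and 306 cycling and 5390, 442 and 1088 non-cycling cells. Cycling cells were about as deep or deeper, with median totals of 14795, 67364 and 37507 UMIs against 14866, 49372 and 35340. Markers of other cells moved with the split: the macrophage list summed to 139, 663 and 123 CPM in cycling and 230.1, 2563 and 1201 in non-cycling cells, and the neutrophil list to 3.40, 214 and 107 against 8.14, 446 and 219. The epithelial list summed to 35034, 24384 and 22330 against 55368, 45685 and 51628 CPM. Their part in the ratios was not tested. In the uninjured library 25 of 34 measured members were 1.5-fold or more higher (18.9% of all genes) and 0 lower (7.78% of all). In the saline library 28 of 34 were higher (33.5% of all) and 0 lower (10.2% of all), and in the losartan library 29 of 34 (35.8% of all) and 0 (9.61% of all). Only 25, 24 and 23 of the members reached 2 CPM in the non-cycling cells themselves. A gene that was measured only through its cycling level had to differ, so these counts describe the members and support nothing more. The median log2 ratio was 1.10, 1.71 and 1.55 for the members and 0.24, 0.33 and 0.38 for all genes.

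Brca1 had 0.681 CPM in non-cycling and 41.7 in cycling cells of the uninjured library, 0.798 and 33.3 in the saline and 0.925 and 33.0 in the losartan library. Its ratio was the largest of the members in each library, at 61.3 times (47.6 to 80.2), 41.7 times (26.7 to 68.9) and 35.7 times (25.4 to 51.4). For comparison the cycle gene Mcm5, which is no member, differed 17.4, 19.0 and 12.7 times. Blm was 14.4, 24.1 and 20.4 times higher in cycling cells, Rad54l 25.2, 40.2 and 15.0 times, and Palb2 13.6, 9.50 and 7.01 times. Brca2 stayed visible outside the cycle, with 10.3, 7.06 and 4.12 CPM in non-cycling cells against 54.8, 44.9 and 38.6 in cycling cells.

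Fancd2 had 0.574, 0.319 and 0.900 CPM in non-cycling and 16.7, 11.5 and 9.64 in cycling cells. Fanci, its partner, had 0.351, 0.239 and 0.40 CPM against 12.4, 8.73 and 8.10. The core complex had a lower median log2 ratio, 1.01, 1.22 and 1.31. Fance, for example, had 13.3, 8.25 and 8.27 CPM in non-cycling and 18.2, 14.9 and 13.4 in cycling cells, and Fancm, the translocase that brings the core to the fork, 3.50, 3.23 and 3.05 against 14.9, 13.2 and 15.0.

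Among the checkpoint genes Chek1 had 1.15, 1.48 and 1.62 CPM in non-cycling cells and 35.0, 24.0 and 20.9 in cycling cells. Chek2, with 7.92, 5.98 and 4.32 against 33.6, 32.4 and 26.5 CPM, kept a higher level outside the cycle. H2afx had 21.3, 33.9 and 37.5 CPM in non-cycling and 207, 111 and 138 in cycling cells, so its cycling ratio was 9.73 times in the uninjured library and 3.29 and 3.67 times in the injured ones. Atm and Atr were between 2.41 and 3.91 times higher in cycling cells. Lig1 had 9.49, 10.8 and 11.1 CPM in non-cycling and 132, 91.2 and 93.2 in cycling cells.

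Several excision genes had near equal levels in both states. Xpa had 43.6, 20.7 and 19.9 CPM in non-cycling and 48.2, 22.8 and 19.8 in cycling cells. Ercc3 had 15.6, 14.5 and 13.1 against 16.9, 15.3 and 15.0 CPM. Ercc1 had 11.9, 36.9 and 35.8 against 11.6, 46.9 and 45.6 CPM, and Lig3 24.8, 8.73 and 9.10 against 25.4, 12 and 10.1 CPM. Xpa, Ercc1 and Lig3 thus differed more between the uninjured and injured libraries than between cycling states. Mgmt differed between cycling states in the injured libraries, with 56.6 and 61.7 CPM in non-cycling and 95.7 and 107 in cycling cells. It differed little in the uninjured one, with 15.4 and 17.0. Mgmt also spanned 37.7 to 111 CPM over the injured clusters, so cycling state and cluster cannot be told apart there. Whether its ratio differed between libraries was not tested.

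**Figure D3:**
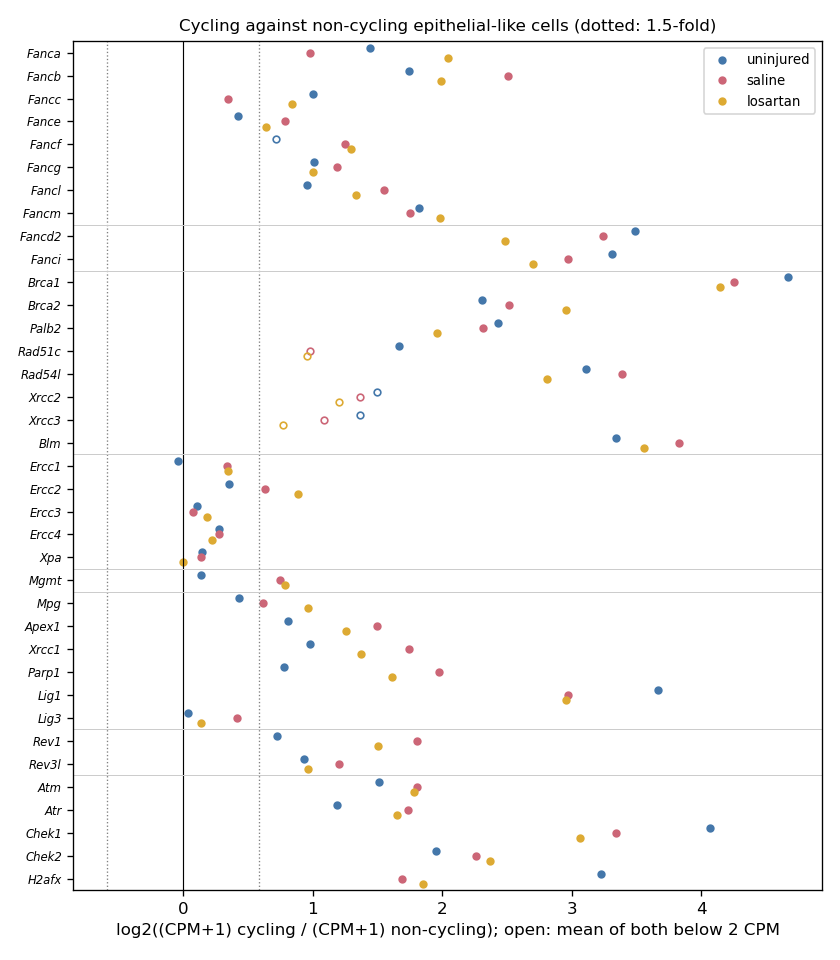
Log2 ratio of cycling to non-cycling epithelial-like cells for each gene and library, from CPM + 1; dotted lines mark 1.5-fold and open points genes with a mean below 2 CPM. Brca1 lies farthest right in all 3 libraries, and Ercc1, Ercc3, Ercc4, Xpa and Lig3 lie near 0.

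Cycling cells were also split, after the levels had been seen, by whether S-phase or G2/M genes held more of their thinned UMIs. There were 649 S-leaning and 799 G2/M-leaning cells in the uninjured, 68 and 126 in the saline, and 99 and 190 in the losartan library. In the uninjured library 11 of 37 members were 1.5-fold or more higher in S-leaning cells (6.08% of all genes) and 2 lower (4.97% of all). With saline 2 of 35 were higher (3.92% of all) and 5 lower (8.24% of all), and with losartan 2 of 35 (4.47% of all) and 4 (6.54% of all). Chek1 was the member higher in S-leaning cells of all 3 libraries, with 57.2 CPM against 18.7, 33.7 against 20.5, and 28.9 against 18.0. Fancd2 and H2afx were lower in S-leaning cells of all 3. Fancd2 had 9.03 CPM against 22.02, 7.05 against 13.2, and 4.38 against 11.7. H2afx had 45.5 CPM against 326, 75.6 against 132, and 96.8 against 150. Lig1 had 189 CPM in S-leaning and 88.2 in G2/M-leaning cells of the uninjured library. The S list itself summed to 2334 and 1144 CPM in the uninjured library but to 1927 and 1420 in the saline library, so the split was less sharp there.

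Saline and uninjured cells of the same cycling state were also compared. They came from different clusters, and the G2/M list summed to 4309 CPM in uninjured and 2901 in saline cycling cells. The states were thus not matched, and the part of the cycling share in the differences was not tested. Ercc1 and Mgmt were higher, and Fancl, Xpa, Parp1, Lig3 and Atm lower, in both states. Atm was just past the bound in cycling cells, with a log2 ratio of -0.595 that ranged from -0.676 to -0.157 under the alternatives. In non-cycling cells 24 members were measured, of which 3 were 1.5-fold or more higher (20.2% of all genes) and 9 lower (24.0% of all). In cycling cells all 37 were measured, with 4 higher (23.2% of all) and 7 lower (21.0% of all). The higher genes were Ercc1, Mgmt and H2afx in non-cycling cells and Ercc1, Mgmt, Rev1 and Fancf in cycling cells. Parp1 had the lowest ratio of the non-cycling members, 44.8 CPM in the uninjured and 9.57 in the saline library, or 0.214 times (0.187 to 0.243). In cycling cells it had 77.4 and 40.6 CPM, or 0.525 times (0.479 to 0.575). Fance, Xrcc1, Rev3l and Atr were also lower in non-cycling cells, at 0.478 to 0.650 times. H2afx went opposite ways, 1.60 times (1.47 to 1.73) in non-cycling and 0.539 times (0.510 to 0.569) in cycling cells, a difference that was not tested. Rad51c, at 3.73 and 1.76 CPM, was the remaining lower gene in cycling cells. The other 7 recombination genes stayed inside 1.5-fold in cycling cells on the CPM + 1 scale. The count of 11 in cycling cells depends on the cycling threshold and the depth, with 18 genes past 1.5-fold when cycling meant 10 or more UMIs and 17 after thinning.

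The losartan and saline libraries were compared to see how the epithelium differed after the same injury. Fanca, Brca2, Blm, Chek1 and Chek2 were lower with losartan, and no member was higher. These 5 of 32 measured genes stand against 9.10% of all genes lower and 3.09% higher. Blm went from 12.2 to 6.90 CPM, or 0.565 times (0.496 to 0.644), and Fanca from 6.58 to 3.68 CPM, or 0.559 times (0.466 to 0.668). Brca2 stood at 0.585 times (0.530 to 0.646), Chek2 at 0.606 times (0.542 to 0.678) and Chek1 at 0.632 times (0.548 to 0.727), the last just past the bound. Brca1 at 0.664 times (0.587 to 0.750), Palb2 at 0.604 times (0.476 to 0.764) and Fancg at 0.585 times (0.449 to 0.760) had low plain ratios too but stayed inside 1.5-fold on the CPM + 1 scale. Genes that differed most between the injured and uninjured libraries hardly differed here. Mgmt stood at 1.04 times (0.992 to 1.09), Ercc1 at 0.951 times (0.894 to 1.01), Rev1 at 0.952 times (0.899 to 1.01) and Lig3 at 0.953 times (0.840 to 1.08). The count fell to 1 with a pseudocount of 5 CPM and to 0 at 2-fold, and was 9 lower genes after thinning.

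Mki67 and Top2a, genes of dividing cells that are no members, were also lower with losartan, with 54.5 and 32.7 CPM and 133 and 79.5 CPM in the saline and losartan libraries. Of the cycle lists 26 of 36 G2/M and 5 of 22 S-phase genes were 1.5-fold or more lower (9.10% of all genes), and cycling cells made up 28.7% and 19.9% of deep cells. The part of the cycling share in the lower members was not tested. Within cycling cells 0 of 35 measured members passed 1.5-fold (4.59% of all genes higher, 7.43% lower). That count became 3 lower without cells over 100000 UMIs, 1 lower when cycling meant 10 or more UMIs, and 10 (3 higher and 7 lower) after thinning. In cycling cells Blm stood at 31.8 and 25.5 CPM, Brca2 at 44.9 and 38.6, Chek1 at 24.0 and 20.9 and Chek2 at 32.4 and 26.5 in the saline and losartan libraries. Within non-cycling cells 1 of 24 measured members was higher (3.80% of all) and 2 were lower (9.01% of all). Rev3l was the higher one, with 21.5 and 36.6 CPM or 1.70 times (1.54 to 1.88). Fanca had 4.71 and 1.70 CPM, 0.361 times (0.264 to 0.491), and Brca2 had 7.06 and 4.12 CPM, 0.584 times (0.470 to 0.726).

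**Figure D4:**
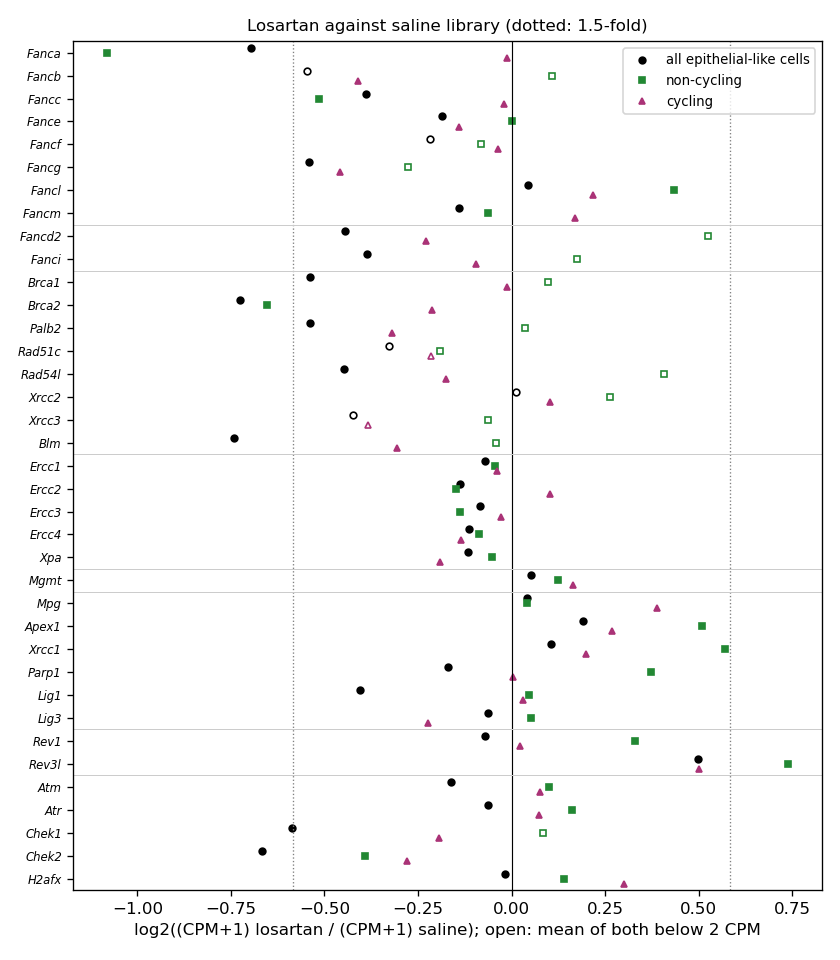
Log2 ratio of the losartan to the saline library in all, non-cycling and cycling epithelial-like cells, from CPM + 1; dotted lines mark 1.5-fold, and open symbols genes with a mean below 2 CPM. The 5 lower genes of the class as a whole lie between the dotted lines when only cycling cells are compared, and Mgmt, Ercc1 and Lig3 lie near 0.

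Stromal fibroblast-like cells, the collagen-making cells of the corneal stroma, numbered 424, 693 and 729. Different clusters held them: 18 and 15 in the uninjured, 9 in the saline, and 15 and 9 in the losartan library. Median depth was 10086, 2776 and 10599 UMIs, and the median mitochondrial share was 1.80%, 4.39% and 2.16% of UMIs. Of 30 measured members 5 were 1.5-fold or more higher (18.2% of all genes) and 9 lower (37.0% of all) in the saline than in the uninjured library. Scaling by the median of ratios, which moved the centre of all genes by -0.45 on the log2 scale, gave 9 higher and 4 lower instead. Of all genes 29.1% were then higher and 17.1% lower. Between losartan and saline 11 members were higher (33.6% of all) and 5 lower (23.1% of all). With the centre moved by 0.39, 7 of 29 were higher (19.7% of all) and 7 lower (33.2% of all). The balance of higher and lower stromal members thus depends on the scaling, as does that of all genes. Macrophage markers summed to 733, 1697 and 184 CPM in these cells and neutrophil markers to 33.7, 616 and 857 CPM, and their part in the values was not tested.

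Many of these values rest on few cells. Fancd2 had 32 UMIs in the saline stroma (13.6 CPM, against 0.722 and 2.30 in the uninjured and losartan libraries), and 2 cells held 50% of them. Atr had 85 UMIs there, and 1 cell held 50%. Mgmt had 9.39, 16.2 and 37.2 CPM, from 39, 38 and 421 UMIs, and its saline to uninjured log2 ratio there turned to -0.19 after thinning. The losartan stroma was thus the highest for Mgmt, at 2.30 times the saline level (1.65 to 3.30), though still below the injured epithelium as a class. Ercc1 had 16.6, 13.6 and 29.5 CPM. Rev3l had 177, 102 and 144 CPM and was higher in the stroma than in any other compared class of the same library. Apex1 had 16.6, 12.8 and 46.7 CPM. Mpg had 18.3, 10.6 and 33.1 CPM.

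Across cell classes, epithelial-like cells held the highest level of 18 of the 37 members with saline and of 11 with losartan, among the 5 classes with at least 50 cells in both. Neutrophil-like cells held the lowest level of 19 and 23 members. Parp1 had 0.862 and 1.96 CPM in neutrophils of the saline and losartan libraries, against 23.6 and 30.6 in macrophage or monocyte-like cells and 33.1 and 35.5 in dendritic-like cells. Apex1 had 3.71 and 3.91 CPM in neutrophils and 54.5 and 62.4 in the epithelium. Lig3 did not share that pattern, with 13.4 and 14.8 CPM in neutrophils. Fancc, a core complex subunit, was highest in dendritic-like cells in both libraries, with 42.1 and 56.5 CPM, and neutrophils had 10.8 CPM with saline and 45.6 with losartan. Rad51c also stood higher in neutrophils, with 5.26 and 6.43 CPM, than in the epithelium, with 0.861 and 0.483. Neutrophil-like and dendritic-like cells of the uninjured library were under 50 and give no value. Schwann-like and mural-like cells, 104 and 91 in the uninjured library, had 274017 and 388303 UMIs in all, in which 28 and 26 members had a UMI.

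**Figure D5:**
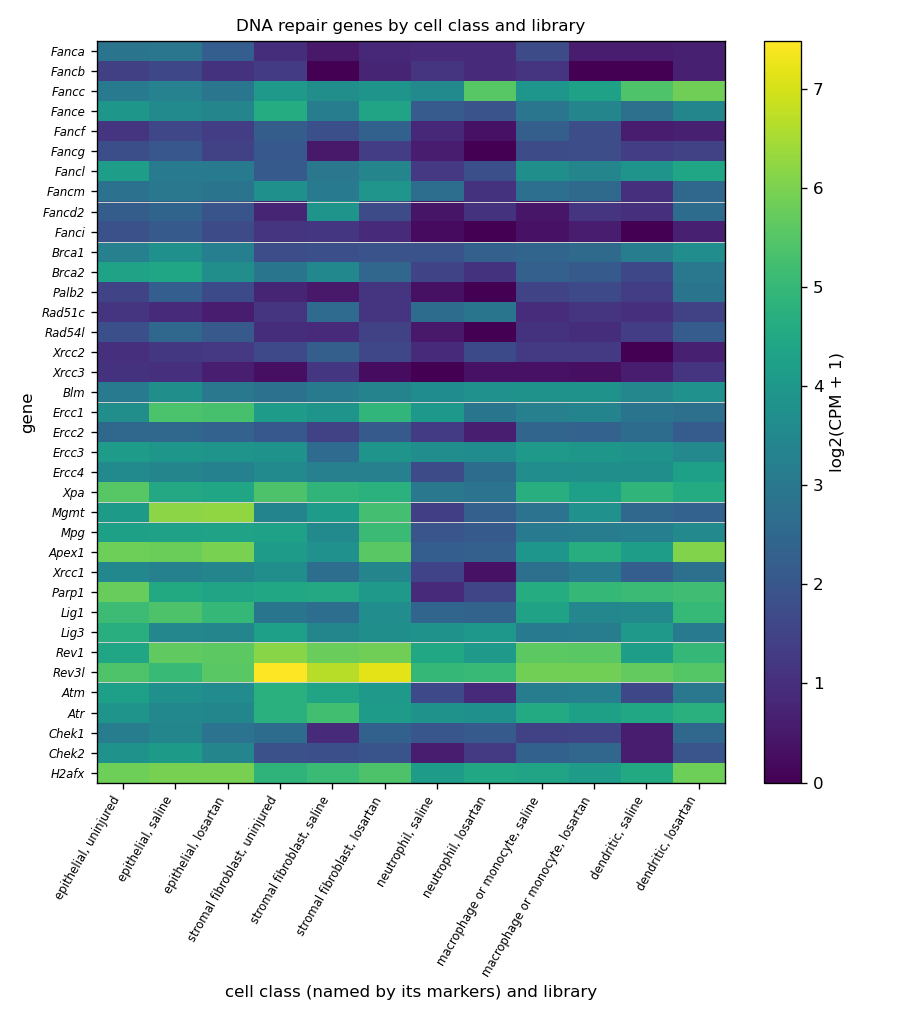
Levels of the 37 genes (rows) in each cell class and library (columns), as log2 of CPM + 1. Epithelial-like columns are brightest for Mgmt and Ercc1 after injury, stromal columns for Rev3l, and neutrophil columns are dark for Parp1, Xrcc1 and Atm.

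Other genes of these pathways were counted from lists. Of 117 further repair genes in 6 lists, 115 were measured in the saline against uninjured epithelium, with 21 higher and 20 lower (22.7% and 20% of all genes) and a median log2 ratio of -0.04 against 0.03 for all genes. In losartan against uninjured, 9 of 110 were higher and 31 lower (17.9% and 23.3% of all genes, median -0.26 against -0.05). End joining, which seals breaks without a template, had 0 higher and 4 lower of 12 in the saline library (median -0.39) and 1 higher and 5 lower of 10 in the losartan library (median -0.60), set against the same shares of all genes. Between losartan and saline, 0 of 111 further genes were higher and 16 lower, against 3.09% and 9.10% of all genes. The further genes with the largest ratios against the uninjured library included Parp3, a relative of Parp1, with 0.471, 5.08 and 3.86 CPM. Polk, a translesion polymerase, had 17.7 and 57.9 CPM in the uninjured and saline libraries, and Xpc, the sensor of nucleotide excision, 45.0 and 12.3 in the uninjured and losartan libraries. Between losartan and saline, Bard1, the partner of Brca1, had 8.63 CPM with saline and 3.38 with losartan, Msh6, a mismatch repair gene, 46.7 and 24.5, and Timeless, a fork protection factor, 8.61 and 4.23.

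Targets of the damage-activated factor p53 were counted as well. Of 24 targets, all measured, 17 were higher and 2 lower in the saline than in the uninjured epithelium (median log2 ratio 1.59), and 19 higher and 2 lower in the losartan library (median 1.63), where 22.7% and 17.9% of all genes were higher. Pmaip1, a promoter of cell death, had 1.32, 51.2 and 69.2 CPM. Eda2r, a receptor of the tumour necrosis factor family, had 0.0524, 18.1 and 18.9 CPM, the first from 7 UMIs, and Trp53inp1, a p53 cofactor, had 6.87, 115 and 145. In non-cycling cells 17 of 24 (20.2% of all genes) and in cycling cells 20 of 24 targets (23.2% of all) were higher with saline. Between losartan and saline 1 of 24 was higher (3.09% of all genes), Bbc3, another death promoter, with 10.2 CPM with saline and 20.3 with losartan. Gdf15, a secreted stress factor, had 16.0 and 10.4 CPM there, and Ddit4, a stress-induced growth inhibitor, 105 and 71.6.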

How the data were processed

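Each library was deposited as whole UMI counts for every gene and barcode, and per the file headers the software was Cell Ranger 8.0.0. The build was GRCm38 per the submitters' processing notes. The annotation release, intron and strand counting, and doublet removal by the authors are not given in the sources used here.

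Cells with 500 or more genes and no more than 20% mitochondrial UMIs were used. Those scoring highest against 2 simulated doublets per cell were removed at 0.8% per 1000 barcodes (1334, 334 and 243 cells). Counts scaled to 10000 were log-transformed, reduced to 2000 variable genes (members left out) and 30 principal components, and clustered over 20 neighbours (Leiden, resolution 0.8; scanpy 1.11.5, leidenalg 0.10.2, igraph 0.11.9, Python 3.11.15, scipy 1.17.1). Clusters were named from 15 marker lists, needing 3 markers in 10% of cells and a score gap of 0.12 or an own marker among the top 10 genes. Clusters much shallower than their library with no own marker there stayed unnamed, as did those with more top markers of another list. Clusters 7, 11, 14 and 16 stayed unnamed and entered no class (2142, 495 and 590 cells). Clusters 7 and 11, with 1127 and 948 uninjured cells, scored best as epithelial but had 0.220 and 0.323 times the median depth. Naming them, an alternative that was not planned, gave 9 members for saline and 10 for losartan against uninjured epithelium (10 each as reported). Names were rebuilt here from markers.

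UMIs were summed per class and library to CPM. Levels carry exact Poisson and ratios exact conditional binomial 95% intervals. With 1 library per group no test was made. Genes with a mean of 2 CPM or more were measured, and 1.5-fold was called on CPM + 1. The calling code was also run on simulated Poisson counts with known changes well above 1.5-fold. They held no variation between mice, libraries or cells, so they do not show how reliable the 1.5-fold calls are. Members past 1.5-fold or nearest to 0 in a comparison are described with levels. From the further repair and the p53 lists, the 3 measured genes with the largest absolute log2 ratio in each epithelial comparison are named, and from the cycle lists Mki67, Top2a and Mcm5. Some genes that this rule selects are not reported here. Genes overlapping a member were named after their values were seen. The rule for members uses gene symbols alone, but members and lists were chosen with earlier results of these data known. The alternatives were other pseudocounts, minimum levels, folds, cycling thresholds, clusterings and scalings, thinned cells and doublets kept. Sequences are from the RefSeq promoter table and positions from GENCODE M21.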

Additional observations from a re-analysis of the deposited data

How the results depend on the processing

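Of 12 counts of members past 1.5-fold, 2 moved under no alternative by over 1.5 times: saline against uninjured and losartan against uninjured in the epithelium, 10 each. Over the 12 counts, 104 of 127 alternative values stayed within 1.5 times and 23 did not. A pseudocount of 5 CPM gave 1 member for losartan against saline (5 as reported), 1 for the same in non-cycling cells (reported as 3) and 8 for the stroma, saline against uninjured (reported as 14). A minimum of 10 CPM, which tests fewer genes, gave 2, 1 and 6 for these, 7 for the stroma, losartan against saline (reported as 16), and 15, 16 and 18 for cycling against non-cycling cells (reported as 25, 28 and 29 in the uninjured, saline and losartan libraries). Thinning to 3000 UMIs gave 9 for losartan against saline, 7 in non-cycling and 10 in cycling cells (reported as 0), 17 for cycling cells, saline against uninjured (reported as 11), and 22 for the stroma, saline against uninjured. A 2-fold bound gave 0 for losartan against saline and 1 in non-cycling cells, 6 for saline against uninjured in non-cycling (reported as 12) and in cycling cells, and 5 for the stroma, saline against uninjured. Cycling at 10 or more UMIs gave 18 for saline against uninjured and 1 for losartan against saline in cycling cells. Leaving out cells over 100000 UMIs, an alternative chosen after seeing the data, gave 3 for the latter. The cause of these moves was not tested, beyond the fewer genes that a minimum or a 2-fold bound leaves.

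Of 1236 single-gene values under alternatives that can change a ratio 940 stayed within their counting interval, 293 moved and 3 reversed, all after thinning: Xrcc2 in the stroma, saline against uninjured (-1.07 on the log2 scale), Mgmt in the same comparison (-0.19), and Ercc2, cycling against non-cycling cells of the losartan library (-0.0628). In the epithelium the log2 ratio of Mgmt, saline against uninjured, ranged from 1.87 to 2.27, that of Ercc1 from 1.42 to 1.70, that of Rev1 from 1.06 to 1.58, that of Parp1 from -1.49 to -1.08, that of Lig3 from -1.85 to -1.02, that of Xpa from -1.25 to -0.90 and that of Fancl from -1.75 to -0.83. In cycling against non-cycling cells, scaling by the median of ratios, which moves the centre of all genes by 0.20, 0.26 and 0.30, left 22, 24 and 24 members higher and 0 lower. Of all genes 10.6%, 21.5% and 20.9% were then higher and 11.2%, 15.9% and 15.1% lower.

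No paired analysis was possible because each group has 1 library. Leaving out replicates was not possible for the same reason, and no comparison reaches beyond these 3 libraries. The minimum of 2 CPM left out the genes below it, which were not measured. Depth limited the saline stroma, where many members had few UMIs. The clusters at resolution 0.4 were not used for the cycling comparisons.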

Other observations

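Further genes of the repair and p53 lists also differed by cycling state. In the uninjured library 59 of 115 measured further repair genes were 1.5-fold or more higher in cycling than in non-cycling epithelial-like cells and 0 lower, in the saline library 78 of 114 and 1, and in the losartan library 79 of 111 and 3. Of all genes 18.9%, 33.5% and 35.8% were higher and 7.78%, 10.2% and 9.61% lower. A gene measured only through its cycling level had to differ. Clspn, which couples Atr to Chek1, had 0.649 CPM in non-cycling and 51.5 in cycling cells of the uninjured library, 0.598 and 69.0 with saline, and 1.45 and 54.6 with losartan. Rad51ap1, a recombination gene, had 0.521 and 33.0 CPM, 0.478 and 34.3, and 0.525 and 34.3. Neil3, a glycosylase that can unhook crosslinks, had 0.138 and 25.6 CPM in the uninjured library. Of the p53 targets in the uninjured library, 1 of 21 was higher in cycling cells (18.9% of all genes) and 4 were lower (7.78% of all). The others stayed within 1.5-fold. There Cdkn1a, the inhibitor of cyclin-dependent kinases, had 620 CPM in non-cycling and 306 in cycling cells, Gadd45a, a growth arrest gene, 34.1 and 17.9, and Sesn2, a stress-response gene, 20.5 and 11.8. With saline 10 of 24 targets were higher in cycling cells (33.5% of all genes) and 2 lower (10.2% of all). With losartan 16 were higher (35.8% of all) and 2 lower (9.61% of all). Fas, a death receptor, had 9.37 and 23.7 CPM with saline and 8.496 and 26.8 with losartan, Eda2r 12.6 and 27.4 with saline and 11.6 and 37.3 with losartan, Aen, a nuclease of cell death, 22.9 and 47.0 with saline, and Ddit4 50.9 and 128 with losartan. Whether these differences varied between libraries was not tested.

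Within one cycling state, Msh6 had 12.2 CPM in the uninjured and 40.8 in the saline library in non-cycling cells. Parp3 had 0.362 and 4.59 CPM in non-cycling and 0.655 and 5.93 in cycling cells, Polk 19.7 and 78.7 in cycling cells, and Xpc 59.5 and 16.8 in cycling cells. Pmaip1 had 0.915 and 45.5 CPM, Eda2r 0.0425 and 12.6, and Trp53inp1 7.18 and 90.2 in non-cycling cells, and 2.50 and 59.98, 0.0409 and 27.4, and 4.50 and 157 in cycling cells. Between saline and losartan, Brip1, a helicase partner of Brca1, had 1.16 and 3.15 CPM, Msh6 40.8 and 21.5, and Faap100, a Fanconi core partner, 16.9 and 10.1 in non-cycling cells. In cycling cells Slx1b, a nuclease subunit, had 5.08 and 2.27 CPM, Bard1 22.7 and 12.3, and Lig4, the ligase of end joining, 3.78 and 1.78. Among the p53 targets, Gdf15 had 17.8 and 8.75 CPM, Bbc3 9.01 and 16.1, and Ddit4 82.7 and 50.9 in non-cycling cells, and in cycling cells Bbc3 had 13.4 and 33.3, Sesn1, a stress-response gene, 24.0 and 40.4, and Trp53inp1 157 and 234.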
